A study of Cavia porcellus with 34 samples.

Results

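Transcription factors of the developing hypothalamus were followed in the paraventricular nucleus (PVN) across 3 generations of guinea pigs. These were SIM1, OTP, POU3F2 (also called BRN2) and ARNT2, which build the PVN, and FEZF1, a gene of the neighbouring ventromedial hypothalamus that was listed with them and whose r with AVP, OXT and CRH was negative in each generation over all its animals. They were taken by gene symbol from the expression tables of each generation. All 5 members were present in each table, out of 12114 genes in F1, 12207 in F2 and 12068 in F3 and 12592 genes over the series, and all 5 passed the filter on low values in each generation. 

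Pregnant F0 Dunkin-Hartley guinea pigs received repeated courses of a synthetic glucocorticoid (sGC, betamethasone) or saline vehicle (Veh), and RNA from PVN tissue punches of their juvenile female descendants was sequenced on postnatal day 40. The F1 animals were exposed in utero, and F2 and F3 descend through the paternal line, from F1 and F2 males bred to untreated females. Each treatment held 5 animals in F1, 5 in F2 and 6 in F3. In F3 a first sequencing batch held 6 Veh and 4 sGC animals, and 2 sGC animals were sequenced in a second batch that the authors corrected for before deposit. The groups were not said to carry any allele or other agent, each sample used here is a single animal, and the study states that its sample sizes count litters rather than littermates. The numbers SGM21 and SGM22 occur in F2 and again in F3. The F3 animals with these numbers are written SGM21-batch2 and SGM22-batch2 and are not the F2 animals. Whether animals of one group share a sire is not given in the sources used here. 

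SIM1 is a basic helix-loop-helix PAS protein that acts as a heterodimer with ARNT2. The pair is needed in the embryo for the magnocellular and parvocellular neurons of the PVN and supraoptic nucleus to differentiate, and OTP, a homeodomain protein, works in parallel with it. POU3F2 is a POU domain factor that acts downstream of SIM1 and ARNT2 in the neurons that make vasopressin (AVP), oxytocin (OXT) and corticotropin-releasing hormone (CRH). These 3 peptides are the secreted products of the mature cells, and CRH and AVP drive the release of ACTH from the pituitary. FEZF1, a zinc finger repressor, is best known from the ventromedial hypothalamus, which it helps to form. ARNT2 is made by most neurons and not only by those of the PVN. 

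The values are normalized counts, that is, reads per gene that the authors corrected by the residual method of RUVSeq and rounded to whole numbers. These values keep no read depth per library. Their sum over all genes, given in M (mega) normalized counts per sample, was 15.57 to 21.94 in F1, 15.65 to 19.44 in F2 and 18.69 to 18.98 in F3. Each table was normalized by itself, so levels are compared within a generation and only fold changes between generations. The log2FC is the difference of mean log2(value + 1), sGC minus Veh, given with its standard error (SE) and tested with limma over all genes of the table, with p-values adjusted by Benjamini-Hochberg and called under 0.05. AVP, OXT, CRH, TRH, SST, SIM1 and OTP were above 0 in each animal, which does not set the PVN apart from its neighbours, since among the tabulated markers of 12 other cell types and regions NR5A1 in F2 was the only one at 0 in any animal. The amount of AVP within the F1 sGC group differed from 10482 to 102436 normalized counts. 

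SIM1, OTP and POU3F2 were lower on average in F1 sGC females and higher on average in F2 sGC females than in their Veh groups, and near the Veh level in F3. No member passed the threshold over all genes in any generation. ARNT2 and FEZF1 followed other patterns. In F1 0 of 5 members were called, where 0.657% of all genes tested were called by limma, and 2 of 5 had an unadjusted p under 0.05, where 13.6% of all genes had. These were OTP, lower in sGC like 1.46% of all genes, and FEZF1, higher in sGC like 12.1%. The split was uneven on the deposited scale, on which 72 of the 78 genes called in F1 were higher and 6 lower. Its cause was not tested, and size factors cannot show it, since they bring the median log2FC near 0 by design. With median-of-ratios size factors 1006 were called higher and 1052 lower, and the median log2FC over all genes went from 0.07 to 0.0032, while none of the 5 members was called. On that scale SIM1 and OTP, both lower, had an unadjusted p under 0.05 and the other 3 did not, where 33% of all genes (3912 of 11870) had. In F2 0 of 5 were called against 0% of all genes, and 3 of 5, SIM1, OTP and POU3F2, had an unadjusted p under 0.05 against 11.7%. In F3 0 of 5 were called against 0.0506% of all genes, and 0 of 5 had an unadjusted p under 0.05 against 13.1%. In an exact permutation test of the treatment labels on the deposited scale, 0 members in F1, 2 in F2 and 0 in F3 had p under 0.05. With size factors SIM1 in F2 also did (exact permutation p = 0.0397). No share of all genes is available for this test. The groups overlapped for each of the 5 members in each generation, while they did not overlap for 2.04% of all genes in F1, 2.4% in F2 and 1.21% in F3. 

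**Figure D1:**
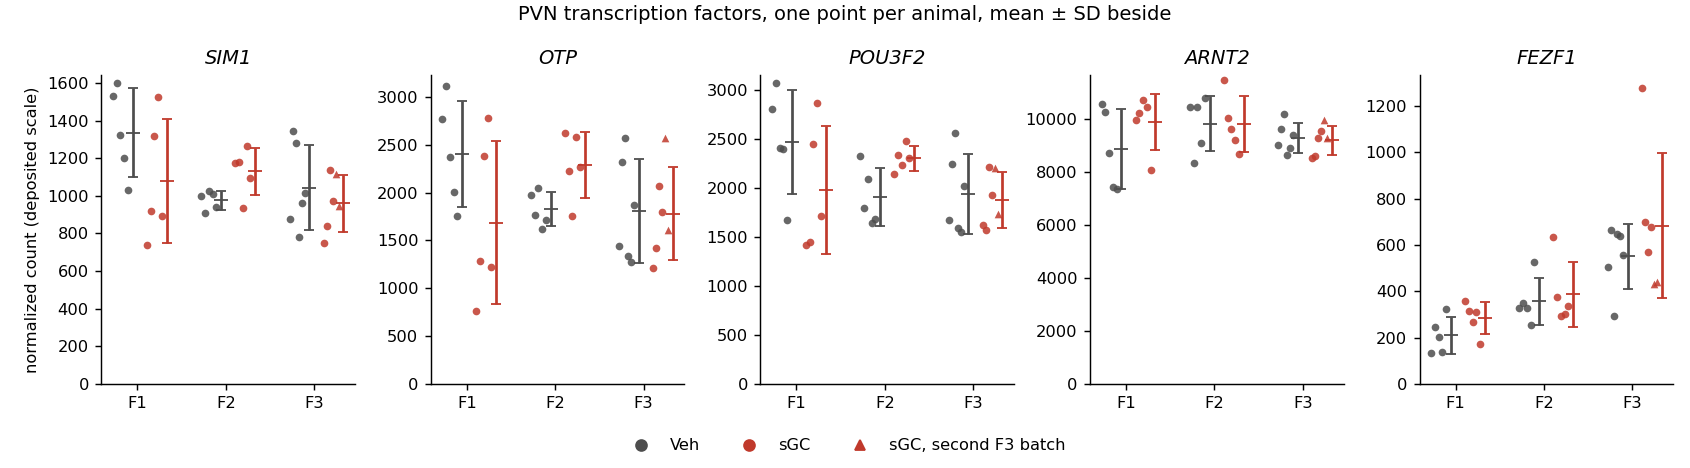
Normalized counts (linear axis from 0, deposited scale) of the 5 transcription factors in each animal of F1, F2 and F3, with Veh in grey and sGC in red, triangles for the 2 sGC animals of the second F3 batch, and the mean ± SD beside each group. In F1 sGC, OTP runs from 764 to 2786, wider than the 1754 to 3115 of F1 Veh, and the groups overlap in each panel.

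In the directly exposed F1 generation, SIM1 was 1532, 1601, 1322, 1203 and 1029 normalized counts in the Veh animals and 739, 917, 1317, 1527 and 895 in the sGC animals. In sGC, 3 animals lay below all Veh animals, and the other 2 lay within the Veh range. The mean was 1337 ± 235 (SD, n = 5) in Veh and 1079 ± 329 in sGC, a log2FC of -0.34 ± 0.17 (SE) (limma, adjusted p = 0.382, exact permutation p = 0.151). Without sGC SGM4 it was -0.22. In bulk tissue, fewer SIM1 neurons in a punch and less SIM1 RNA per neuron cannot be told apart. 

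OTP had the widest separation of the 5 in F1. It was 2769, 3115, 2372, 2012 and 1754 in Veh and 764, 1280, 2381, 2786 and 1221 in sGC. The same 3 sGC animals were below each Veh animal, and the same 2, SGM12 and SGM16, were within the Veh range. The log2FC was -0.64 ± 0.24 (SE) (limma, unadjusted p = 0.0154, adjusted p = 0.234), and the exact permutation p was 0.143 where 252 splits of the animals allow no p under 0.00794. A single animal decided this call, since without sGC replicate SGM16 the log2FC was -0.86 and passed the threshold (limma, adjusted p = 0.0391). Without sGC SGM4 it was -0.39. 

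POU3F2, the factor closest to the peptide genes in this cascade, was 2805, 3064, 2402, 2391 and 1666 in F1 Veh and 1415, 1441, 2449, 2866 and 1708 in F1 sGC. SGM12 and SGM16 were again the 2 highest sGC animals, and SGM20 lay just above the lowest Veh animal. Its log2FC was -0.35 ± 0.18 (SE) (limma, adjusted p = 0.415, exact permutation p = 0.238). The median log2FC over all genes was 0.07 in F1. 

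ARNT2, the dimer partner of SIM1, did not share this pattern. It was 10566, 10274, 8712, 7446 and 7348 in F1 Veh and 9972, 10210, 10714, 10456 and 8063 in F1 sGC, so that 4 of 5 sGC animals were above the Veh mean. The log2FC was 0.17 ± 0.13 (SE) (limma, adjusted p = 0.646), and it was 0.10 with size factors and 0.10 without Veh SGM19. FEZF1 was 135, 244, 203, 138 and 325 in F1 Veh and 356, 316, 265, 311 and 174 in F1 sGC. Here 4 of 5 sGC animals lay above the Veh mean, with a log2FC of 0.48 ± 0.22 (SE) (limma, unadjusted p = 0.0392, adjusted p = 0.338, exact permutation p = 0.143). 

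In F2, the grandoffspring through F1 males, the 3 factors SIM1, OTP and POU3F2 had higher means in sGC. SIM1 was 1002, 908, 1024, 1010 and 942 in Veh and 1176, 1180, 933, 1268 and 1093 in sGC. In sGC, 4 animals exceeded each Veh animal, and the fifth, SGM30 at 933, lay within the Veh range. The log2FC was 0.20 ± 0.09 (SE) (limma, unadjusted p = 0.0323, adjusted p = 0.394, exact permutation p = 0.0556). 

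OTP was 1975, 1770, 2044, 1622 and 1718 in F2 Veh and 2622, 2230, 1760, 2578 and 2270 in F2 sGC. The same sGC animal, SGM30, fell within the Veh range and the other 4 were above it. The log2FC of 0.32 ± 0.11 (SE) did not pass over all genes (limma, unadjusted p = 0.0105, adjusted p = 0.278, exact permutation p = 0.0476). POU3F2 was 2322, 1790, 2088, 1640 and 1677 in Veh and 2141, 2337, 2232, 2481 and 2301 in sGC. All 5 sGC animals were above the Veh mean, although the highest Veh animal, SGM22, exceeded 3 of them. Its log2FC was 0.28 ± 0.10 (SE) (limma, unadjusted p = 0.0107, adjusted p = 0.278, exact permutation p = 0.0397). An unadjusted p under 0.05 with a higher level in sGC was met by 2.49% of all genes in F2, whose median log2FC was -0.08. 

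ARNT2 in F2 ran from 8355 to 10778 in Veh and from 8679 to 11462 in sGC, with means of 9827 ± 1052 and 9795 ± 1059 (SD, n = 5). FEZF1 ran from 253 to 525 in Veh and from 291 to 633 in sGC, a log2FC of 0.10 ± 0.22 (SE) (limma, adjusted p = 0.873). The ranges of both genes overlapped almost fully. 

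In F3, whose fathers were not exposed in utero, the groups lay close to each other. SIM1 had a lowest, median and highest value of 782, 988 and 1345 in Veh and 748, 958 and 1140 in sGC. OTP had 1277, 1657 and 2574 in Veh and 1212, 1700 and 2568 in sGC. POU3F2 had 1547, 1842 and 2557 in Veh and 1564, 1826 and 2212 in sGC. 

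For each of the 3 factors the medians of Veh and sGC differed by less than the range within either group. The log2FC values in F3 were -0.11 ± 0.13 (SE) for SIM1, -0.01 ± 0.20 for OTP and -0.03 ± 0.13 for POU3F2 (limma, adjusted p of 0.783, 0.987 and 0.943). ARNT2 stayed between 8529 and 10194 in all 12 animals, with a log2FC of -0.02 ± 0.04 (SE) (limma, adjusted p = 0.928). FEZF1 had 294, 598 and 664 in Veh and 431, 624 and 1278 in sGC, where the highest animal, SGM10, was at 1278 and the next at 700 (log2FC 0.25 ± 0.25, limma adjusted p = 0.714). Without SGM10 it was 0.053, and without Veh SGM17 0.084. In the first batch alone, the 5 log2FC values kept their sign and were larger in size, and none was called. For FEZF1 this setting left out the 2 lowest sGC animals, SGM21-batch2 and SGM22-batch2 (431 and 439). 

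**Figure D2:**
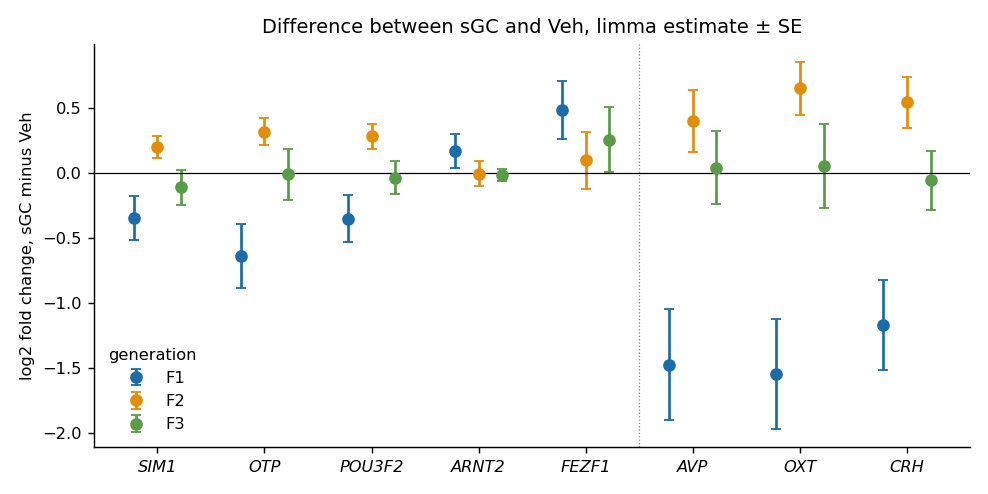
Log2FC (sGC minus Veh, limma estimate ± SE) of the 5 transcription factors and, right of the dotted line, of AVP, OXT and CRH in F1 (blue), F2 (orange) and F3 (green). SIM1, OTP and POU3F2 lie below 0 in F1 and above 0 in F2, as do the 3 peptides, while ARNT2 stays within -0.02 to 0.17.

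The change of sign between F1 and F2 was tested by permuting the treatment labels within each generation. The fold change in F1 minus that in F2 was -0.55 for SIM1 (exact permutation p = 0.0334), -0.96 for OTP (exact permutation p = 0.0214) and -0.63 for POU3F2 (exact permutation p = 0.0313). Each had an adjusted p of 0.167 over the 15 comparisons made (5 members and 3 pairs of generations), so that none passed. They did pass with size factors and in 1 of the 20 omissions of a single animal. After scaling by size factors the differences were -0.68, -1.09 and -0.77, each with an adjusted p of 0.0267 (exact permutation). Without F1 sGC replicate SGM16 they were -0.68, -1.18 and -0.78, each with an adjusted p of 0.0458 (exact permutation). SGM16 was the F1 sGC animal with the most SIM1, OTP and POU3F2, so its omission made each difference larger in size. For ARNT2 and FEZF1 the F1 to F2 differences were 0.17 and 0.39 (exact permutation p of 0.312 and 0.358). With size factors they were 0.033 and 0.25 (exact permutation p of 0.716 and 0.539), and leaving out 1 animal gave 0.11 to 0.24 and 0.24 to 0.58. 

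The peptide genes that these factors serve differed in the same directions. AVP was 105166, 110112, 88264, 95906 and 48718 normalized counts in F1 Veh and 10482, 14891, 77938, 102436 and 23305 in F1 sGC. SGM12 and SGM16, the sGC animals with Veh-like SIM1, OTP and POU3F2, were the 2 with Veh-like AVP. The log2FC values in F1 were -1.47 ± 0.42 (SE) for AVP, -1.54 ± 0.42 for OXT and -1.17 ± 0.35 for CRH (limma, adjusted p of 0.11, 0.0884 and 0.116). In F2 they were 0.40, 0.65 and 0.54 (limma, adjusted p of 0.543, 0.244 and 0.328). TRH, the thyrotropin-releasing hormone of parvocellular PVN neurons, had a log2FC of -0.94 in F1 and 0.19 in F2 (limma, adjusted p of 0.0802 and 0.653), and SST, somatostatin, -0.63 and 0.13 (limma, adjusted p of 0.485 and 0.893). None of these 5 peptides passed the threshold on the deposited scale, and with size factors TRH was called lower in F1. 

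With the log2 AVP level of the same animal as a covariate, the F1 log2FC values turned to 0.11 for SIM1, 0.12 for OTP and 0.16 for POU3F2 (limma, adjusted p of 0.88, 0.865 and 0.793). With OXT as the covariate they were 0.13, 0.16 and 0.19. AVP itself was low in the same 3 sGC animals, so that the parts of AVP and of treatment in this fit cannot be told apart. In F2, with AVP as the covariate, SIM1, OTP and POU3F2 had 0.19, 0.34 and 0.26 (limma, adjusted p of 0.485, 0.374 and 0.424), and with OXT 0.16, 0.25 and 0.07. 

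Across animals, SIM1, OTP and POU3F2 all varied with AVP and OXT in F1 and with CRH in F3, while only some of their other relations with the peptides passed. The log2 values were centred within the treatment groups of each table, so that a difference between treatment means could not make a correlation. Centring does not remove a response to treatment that differs among the sGC animals, and the part of such a response was not tested. In F1 the SD of log2 AVP was 1.45 in sGC and 0.478 in Veh. P-values came from exact permutations within groups. There were 45 relations with the peptides (5 members, 3 peptides, 3 generations), and the adjusted p is over these. Of 15 relations in each generation, 7 passed in F1, 3 in F2 and 10 in F3. No share of all genes is available for this test. By r alone, 4.16% and 4.18% of all genes in F3 were at or above ARNT2 in their r with AVP and OXT. In F2, 90.5% and 86.4% of all genes were at or above the negative r of ARNT2 and FEZF1 with AVP. In the centred values 1 residual direction in F1, 1 in F2 and 2 in F3 had a singular value near 0 and is called removed here. The study does not give such counts, and which processing step left them was not tested. The animals of a table are thus not fully independent of each other, and these p-values do not account for it. 

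In F1 (n = 10) the correlation with AVP was r = 0.937 for SIM1, 0.947 for OTP and 0.939 for POU3F2, with Spearman's rho of 0.952 for each (exact permutation, adjusted p of the r of 0.005, 0.0052 and 0.00285, adjusted p of the rho of 0.0107, 0.0107 and 0.00626). With OXT they were r = 0.931, 0.944 and 0.939, also with rho of 0.952. Among the 11873 other genes tested in F1, OTP, POU3F2 and SIM1 ranked 9, 10 and 11 from the highest in their r with AVP, where the median r over all genes was 0.195. The 3 factors therefore stood among the genes that followed AVP most closely in these punches. 

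The F1 sGC animals formed 2 sets on AVP, 3 from 10482 to 23305 and 2 from 77938 to 102436, so the relation was also computed without the extremes. Without the 2 animals farthest from the AVP median, r was 0.932 for SIM1, 0.939 for OTP and 0.921 for POU3F2 (n = 8, exact permutation, adjusted p = 0.0375 for each). Within the 7 animals above the widest gap in AVP, which is 5 Veh and 2 sGC, r was 0.887 for SIM1, 0.831 for OTP and 0.971 for POU3F2 (exact permutation, adjusted p of 0.0402, 0.0501 and 0.0328). Leaving out 1 animal at a time gave r from 0.898 to 0.972 for the 3 factors with AVP. 

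CRH is made by the parvocellular neurons that start the stress response. In F1 its r was 0.757 for SIM1, 0.818 for OTP and 0.649 for POU3F2, with rho of 0.794, 0.794 and 0.721 (exact permutation, adjusted p of the r of 0.0607, 0.0448 and 0.122, adjusted p of the rho of 0.0691, 0.0691 and 0.0981). Only the relation of OTP passed, and its call was lost without the 2 animals farthest from the CRH median (r = 0.468). With size factors the call was lost too (r = 0.828, rho of 0.588, exact permutation, adjusted p of 0.0568 and 0.198). Leaving out any one of 7 of the 10 animals (SGM3, SGM11, SGM19, SGM4, SGM12, SGM16 or SGM20) also lost the call, with r from 0.65 to 0.895 over all 10 omissions. Other settings added calls. SIM1 with CRH passed by exact permutation without SGM15 (r = 0.817, adjusted p = 0.023) or SGM8 (r = 0.847) and POU3F2 without SGM8 (r = 0.83, exact permutation, adjusted p = 0.0295). Not centred, so that the treatment difference entered, SIM1, OTP and POU3F2 all passed with CRH (r of 0.817, 0.87 and 0.729, permutation, adjusted p of 0.00557, 0.00591 and 0.0131). 

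No relation of ARNT2 or FEZF1 with the peptides passed in F1 with all animals. The r with AVP was 0.372 for ARNT2 and -0.243 for FEZF1, with rho of 0.564 and -0.345 (exact permutation, adjusted p of the r of 0.353 and 0.587). Their r with OXT and CRH lay between -0.275 and 0.36. Without the 2 animals farthest from the peptide's median, ARNT2 had r = 0.754 with AVP and 0.754 with OXT (exact permutation, adjusted p of 0.0765 and 0.0975), and without sGC SGM20 its relation with AVP passed (r = 0.348, exact permutation, adjusted p = 0.0417). 

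**Figure D3:**
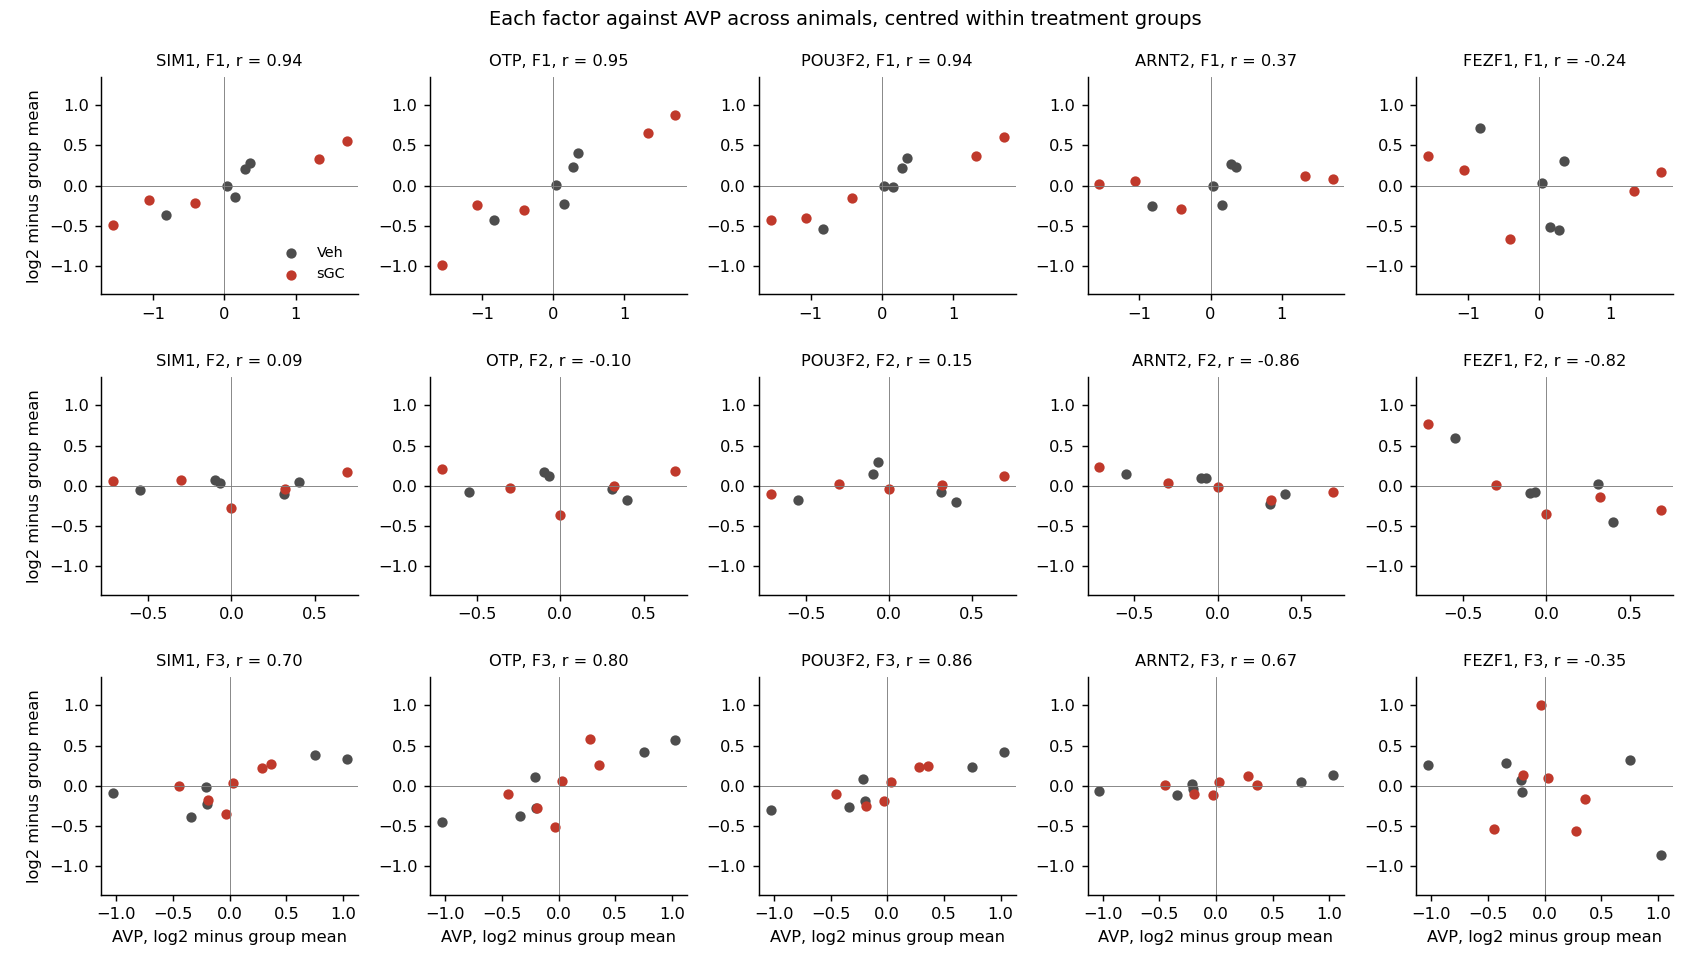
Each transcription factor (columns, vertical axis) against AVP (horizontal axis) in F1, F2 and F3 (rows), both as log2(value + 1) minus the mean of the animal's treatment group, 1 point per animal with Veh in grey and sGC in red. SIM1, OTP and POU3F2 rise with AVP in F1 (r of 0.937, 0.947 and 0.939). In F3 their r are 0.705, 0.799 and 0.864, of which that of SIM1 did not pass (exact permutation, adjusted p = 0.0534). In F2 they have r of 0.0943, -0.102 and 0.155 on the deposited scale plotted here, or 0.557, 0.323 and 0.574 with size factors.

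The F3 table, in which the treatment groups lay close to each other, also held high r for these 3 factors. In F3 (n = 12) the r with AVP was 0.705 for SIM1, 0.799 for OTP and 0.864 for POU3F2, with rho of 0.706, 0.699 and 0.797 (exact permutation, adjusted p of the r of 0.0534, 0.0086 and 0.00285, adjusted p of the rho of 0.0615, 0.0476 and 0.0234). With OXT the r was 0.596, 0.74 and 0.836, of which those of OTP and POU3F2 passed (adjusted p of 0.0253 and 0.00864). With CRH the r was 0.92, 0.763 and 0.791, with rho of 0.923, 0.748 and 0.769, and all 3 passed (adjusted p of the r of 0.00285, 0.0246 and 0.0196). SIM1 stood at place 15 of 11865 genes in its r with CRH, OTP at 276 and POU3F2 at 202, while the median over all genes was -0.05. 

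Within the first F3 batch (n = 10) the r of SIM1 with CRH was 0.953 (adjusted p = 0.00446), that of POU3F2 with AVP 0.878 (adjusted p = 0.00208) and that of OTP with AVP 0.862 (adjusted p = 0.00446, all by exact permutation). Without the 2 animals farthest from the peptide's median, SIM1 with CRH (r = 0.879, adjusted p = 0.0375) and POU3F2 with AVP (r = 0.786, adjusted p = 0.039) were the 2 of the 10 relations that still passed. The Veh animal SGM17 had the most AVP (26259), OXT (17091) and CRH (237) of the F3 animals and also the most OTP (2574) and POU3F2 (2557), and without it 3 of the 15 F3 relations passed. The calls of OTP and POU3F2 with OXT and CRH were lost without SGM17 (r from 0.643 to 0.75), and that of OTP was also lost without SGM14, SGM9 or SGM21-batch2 for OXT and without SGM10 for CRH. 

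ARNT2, which stayed level between treatments, nevertheless varied with the peptides in F3, at r = 0.665 with AVP, 0.681 with OXT and 0.786 with CRH, and rho of 0.622, 0.65 and 0.748 (exact permutation, adjusted p of the r of 0.0448, 0.0448 and 0.0188). The relations with AVP and OXT passed narrowly. They failed without 9 of the 12 animals taken one at a time for AVP and without 10 for OXT. Both were also lost with size factors (exact permutation, adjusted p of 0.0566 and 0.0568), which left 8 of the 10 F3 relations, and that with OXT in the first batch (adjusted p = 0.0596). The relation with CRH failed without SGM17 (r = 0.705). FEZF1 had negative r with the peptides in F3, -0.346 with AVP, -0.321 with OXT and -0.645 with CRH, and none passed (exact permutation, adjusted p of 0.353, 0.385 and 0.0579). That with CRH passed when not centred (r = -0.639, permutation, adjusted p = 0.0369) and without SGM14 (r = -0.758, exact permutation, adjusted p = 0.0333). 

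In F2 the r with AVP depended on the scaling. On the deposited scale it was 0.0943 for SIM1, -0.102 for OTP and 0.155 for POU3F2 (exact permutation, adjusted p of 0.851, 0.845 and 0.679). With size factors it was 0.557, 0.323 and 0.574, with rho of 0.709, 0.127 and 0.503, and none passed (exact permutation, adjusted p of the r of 0.248, 0.511 and 0.166). POU3F2 with OXT was the one positive relation that passed, at r = 0.784 and rho of 0.782 (exact permutation, adjusted p of 0.0187 and 0.0383), and it failed without Veh replicate SGM22 (r = 0.715) or sGC replicate SGM21 (r = 0.824). With CRH the r was 0.717 for SIM1, 0.635 for OTP and 0.497 for POU3F2, none of which passed when centred on the deposited scale (exact permutation, adjusted p of 0.104, 0.153 and 0.168). By r alone they stood at places 18, 45 and 106 of 11964 genes, where the median r with CRH over all genes was -0.404. Not centred, SIM1, OTP and POU3F2 all passed with CRH (r of 0.834, 0.79 and 0.716, permutation, adjusted p of 0.00243, 0.00569 and 0.0193). SIM1 with CRH also passed in 1 of the 10 omissions of an animal (exact permutation, adjusted p = 0.026). With size factors, SIM1 and POU3F2 passed with CRH (r = 0.875 and 0.763, exact permutation, adjusted p of 0.034 and 0.0455). 

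The other 2 relations that passed in F2 were negative, ARNT2 with AVP at r = -0.857 and rho of -0.83 and FEZF1 with AVP at r = -0.825 and rho of -0.782 (exact permutation, adjusted p of the r of 0.0173 and 0.0198). The median r of all genes with AVP was -0.518 in F2, and with size factors the values were -0.509 for ARNT2 and -0.61 for FEZF1, neither of which passed (exact permutation, adjusted p of 0.274 and 0.154). They also failed without SGM21 (r = -0.777 and -0.706), and that of FEZF1 failed without SGM29 (r = -0.77). The F2 animals held a narrower range of these factors, with a within-group SD of log2 values of 0.13 for SIM1 and 0.19 for OTP against 0.356 and 0.589 in F1. Whether the narrower range bears on the lower r was not tested, nor was the difference of r between generations. 

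The slope of each member on a peptide was also fitted in limma over all genes, with the treatment as a term. In F1, SIM1, OTP and POU3F2 had positive slopes on AVP past the threshold, 3 of 5 members against 2.43% of all genes, at 0.31, 0.52 and 0.35 log2 units per log2 unit of AVP (limma, adjusted p of 0.00179, 2.72e-07 and 0.00036). A doubling of AVP thus went with a rise of OTP by 0.52 log2 units among animals of one treatment. On OXT the same 3 of 5 passed against 2.55% of all genes, with slopes of 0.31, 0.52 and 0.35, and on CRH 1 of 5, OTP, against 0.143% (slope 0.57, limma adjusted p = 0.00392, or 0.105 with size factors). 

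In F3, POU3F2 had a slope of 0.39 on AVP (limma, adjusted p = 0.0367), 1 of 5 members against 0.126% of all genes. None of 5 passed on OXT, where 0.0674% of all genes did, and POU3F2 came closest (limma, slope 0.32, adjusted p = 0.0904). On CRH 4 of 5 had positive slopes past the threshold against 1.59% of all genes, SIM1 at 0.55, OTP at 0.68, POU3F2 at 0.45 and ARNT2 at 0.15 (limma, adjusted p of 0.00261, 0.0318, 0.0238 and 0.0395). With the removed residual directions as covariates, SIM1 on CRH still passed (limma, adjusted p = 0.0133), and the other 3 on CRH and POU3F2 on AVP did not (limma, adjusted p from 0.0676 to 0.156). In F1 that setting left all 7 slopes past the threshold. 

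In F2, the slopes of ARNT2 (-0.29) and FEZF1 (-0.74) on AVP passed (limma, adjusted p of 0.0267 and 0.0246), 2 of 5 members where 15.3% of all genes passed in either direction. Neither passed with the removed directions as covariates or with size factors (limma, adjusted p from 0.0565 to 0.731). None of 5 passed on OXT, where 5.88% did, nor on CRH, where 0% did (limma, lowest adjusted p of 0.0727 and 0.418). 

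The factors also varied with each other. SIM1 and OTP, which act in parallel in the embryo, had r = 0.984 and rho of 1 in F1, so that the centred values of the 10 animals fell in the same order for both. SIM1 with POU3F2 had r = 0.961 and OTP with POU3F2 r = 0.918, with rho of 0.976 for each (exact permutation, adjusted p of the 3 r of 0.000694, 0.00156 and 0.00125, over 30 relations among members). In F3 the 3 pairs had r of 0.917, 0.9 and 0.961, with rho of 0.867, 0.846 and 0.923 (exact permutation, adjusted p of the r of 0.00125, 0.00156 and 0.000693). In F2 they had r of 0.8, 0.317 and 0.502 and none passed (exact permutation, adjusted p of 0.0615, 0.321 and 0.128). 

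Leaving out single animals held the r of the 3 pairs between 0.874 and 0.99 in F1 and between 0.887 and 0.975 in F3. Within the 7 F1 animals above the AVP gap they were 0.99, 0.963 and 0.935 (exact permutation, adjusted p = 0.0139 for each). ARNT2 joined the 3 factors in F3, at r of 0.865 with SIM1, 0.934 with OTP and 0.898 with POU3F2 and rho of 0.86, 0.923 and 0.846 (exact permutation, adjusted p of the r of 0.00303, 0.000694 and 0.00156), although its within-group SD there was only 0.0873. In F1 the r of ARNT2 with these 3 was 0.63, 0.536 and 0.572, none of which passed. Without the 2 animals farthest from the median of the factor set beside it, each passed, at r of 0.707, 0.651 and 0.86 (exact permutation, adjusted p of 0.0418, 0.0418 and 0.0375), as each did without sGC SGM20 (0.612, 0.515 and 0.592), while with size factors r was 0.434, 0.415 and 0.362. 

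FEZF1 was set beside the other 4 members in the same way. In F1 its r lay between -0.287 with POU3F2 and 0.0958 with ARNT2, and in F2 it was 0.0803 with SIM1, 0.369 with OTP, -0.264 with POU3F2 and 0.669 with ARNT2 (exact permutation, adjusted p = 0.111 for the last), so that none passed in these generations. In F3 its r was -0.572 with SIM1, -0.665 with OTP, -0.573 with POU3F2 and -0.739 with ARNT2, of which the last passed (exact permutation, adjusted p = 0.0293). That relation failed without the 2 animals farthest from the ARNT2 median (r = -0.429) and in the first batch alone (r = -0.7), and without any one of SGM17, SGM5, SGM9, SGM10, SGM2 or SGM21-batch2. In F2 the r of FEZF1 with ARNT2 passed without Veh SGM23 (r = 0.832, exact permutation, adjusted p = 0.0266). SIM1, OTP and POU3F2 thus varied together in F1 and F3 and ARNT2 with them in F3, while each r of FEZF1 with the other 4 members in F3 was negative. 

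**Figure D4:**
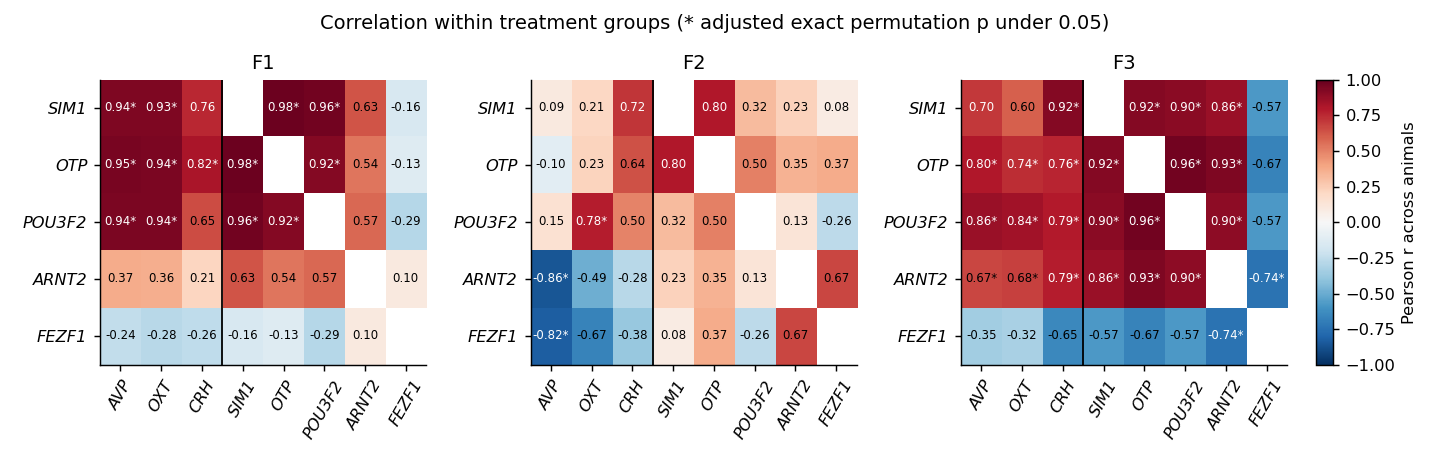
Pearson r across animals (colour and printed value) of each transcription factor (rows) with AVP, OXT and CRH (left of the line) and with the other factors (right), centred within treatment groups, in F1 (n = 10), F2 (n = 10) and F3 (n = 12), with an asterisk where the adjusted exact permutation p is under 0.05. SIM1, OTP and POU3F2 form a block of high r with the peptides and each other in F1 and F3, and FEZF1 is negative with all others in F3.

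How widely a factor varied among animals of one treatment also set the members apart. The pooled within-group SD of OTP was 0.589 log2 units in F1 and 0.408 in F3, above 96.3% and 97.4% of all genes and above 99.6% and 99.8% of the genes within 0.5 log2 units of its mean level. SIM1 (0.356 and 0.272) and POU3F2 (0.403 and 0.259) were above 85.6% and 89% of all genes in F1 and 92.6% and 91.7% in F3. In F2 SIM1, OTP and POU3F2 were at the 30.1, 62.5 and 50.6 percentile of all genes, and at the 42.9, 84.6 and 74 percentile of genes of like level. ARNT2 was near the median of all genes, but at the 70.5, 61 and 82.9 percentile of genes of like level, with 0.21, 0.156 and 0.0873 against medians over all genes of 0.207, 0.161 and 0.0828. FEZF1 was variable throughout, with 0.476, 0.418 and 0.515. 

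Over all 32 animals, centred within the 6 groups, the 3 genes with the highest r with each member were listed among 11428 others, as a description since they were chosen by that value. For SIM1 these were NRG1 (neuregulin 1, a growth factor ligand of ErbB receptors, r = 0.962), OTP (0.945) and GHSR (the ghrelin receptor, 0.934). For OTP they were GHSR (0.949), SIM1 (0.945) and NRG1 (0.944), so that both members shared the same neighbours. In the single generations the r of NRG1 with SIM1 was 0.987, 0.803 and 0.975, and that of GHSR with OTP was 0.973, 0.838 and 0.959. 

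POU3F2 was nearest to BVES (a membrane protein that binds cyclic AMP, r = 0.945), PTGFR (the prostaglandin F receptor, 0.93) and BHLHE22 (a basic helix-loop-helix repressor, 0.922), and SIM1 and OTP followed at places 11 and 7. PTGFR itself had a log2FC of -1.13 in F1 and 0.69 in F2 (limma, adjusted p of 0.0955 and 0.0622), with no overlap between the F2 groups, as for 2.4% of all genes in F2. BVES had -1.08 and 0.47 (limma, adjusted p of 0.11 and 0.251). For SIM1 the peptides stood at places 36 (AVP), 46 (OXT) and 35 (CRH), and for POU3F2 OXT stood at place 8. 

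ARNT2 had other neighbours, LDOC1 (r = 0.946), MTCH1 (a mitochondrial carrier homolog, 0.941) and CSK (a kinase that inhibits Src kinases, 0.937), and SIM1 came at place 5442. Of FEZF1, the nearest were RASGRF2 (a Ras exchange factor, r = 0.77), Chrm5 (the muscarinic receptor M5, 0.768) and CAMK1G (a calmodulin-dependent kinase, 0.766). All 3 had positive log2FC values in F1, of 0.53, 1.01 and 0.36 (limma, adjusted p of 0.132, 0.0569 and 0.289). They were chosen by their r in the same animals, and the median log2FC over all genes in F1 was 0.07. 

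Relatives and dimer partners of the members were read as a fixed list of 12 genes, of which 10 were tested in each generation and none was called by limma, where 0.657%, 0% and 0.0506% of all genes were called in F1, F2 and F3. At an unadjusted p under 0.05 there were 3 of the 10 in F1 (2 higher and 1 lower), 3 in F2 (1 higher and 2 lower) and 2 in F3 (1 higher and 1 lower), against 13.6%, 11.7% and 13.1% of all genes. With size factors EPAS1 and HIF1A were called higher in F1, where 17.3% of all genes were called in either direction (1006 higher and 1052 lower of 11870). SIM2 (the paralog of SIM1), the POU3F1, POU3F3 and POU3F4 paralogs of POU3F2, FEZF2 (the paralog of FEZF1), the PAS domain genes NPAS1, NPAS3, EPAS1 and HIF1A and the clock gene ARNTL made up the tested genes. The median log2FC was 0.16 in F1, -0.07 in F2 and -0.02 in F3, beside 0.07, -0.08 and -0.0016 over all genes. In F1 it ran from -0.75 for FEZF2 to 0.49 for EPAS1, in F2 from -0.34 for POU3F1 to 0.51 for FEZF2, and in F3 from -0.35 for POU3F3 (limma, adjusted p = 0.0764) to 0.10 for ARNTL. SIM2 had 0.24 in F1, where SIM1 had -0.34, and took the sign of SIM1 in F2 (0.14) and F3 (-0.02, limma, adjusted p of 0.453, 0.708 and 0.833). 

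The list of products and receptors of SIM1 neurons held 14 genes, of which 10 were tested in F1 and 11 in F2 and F3, with 0 called by limma in each (all genes, 0.657%, 0% and 0.0506%). Unadjusted p under 0.05 was reached by 3, 0 and 0 of them, and by 13.6%, 11.7% and 13.1% of all genes. With size factors TRH was called lower and PLXNA1, a semaphorin co-receptor, higher in F1, against 17.3% of all genes called in either direction. The median log2FC on the deposited scale was -0.01, 0.06 and -0.04. TRH was the lowest in F1 (-0.94) and OXTR, the oxytocin receptor, the highest (0.54). GLP1R, the receptor of a gut-derived satiety peptide, had -0.37, 0.07 and -0.21, and SLC17A6, the vesicular transporter that marks glutamate neurons, -0.07, 0.10 and -0.0064. MC4R, CRHR1, NTRK2 and ARNT had no entry under these symbols in F1, F2 or F3, and MC3R had none in F1, so they were not analysed there. 

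Few markers of the PVN and its neighbouring regions passed the threshold in F1, namely LHX1, RORB and FOXP2. All 7 genes of the PVN list had a lower mean, with a median log2FC of -0.94, 0 called by limma and 5 with an unadjusted p under 0.05 (all genes, 0.657% and 13.6%, or 1.46% for lower alone). The summed level of the list was 94313 to 217016 in Veh and 22595 to 191137 in sGC. Of the ventromedial list, to which FEZF1 belongs, 5 of 6 tested genes had a higher mean (median 0.60, 0 called by limma and 4 with an unadjusted p under 0.05, against 12.1% of all genes in that direction), led by NR5A1, the nuclear receptor that defines that nucleus, at 44.8 ± 33.1 in Veh and 143 ± 96.7 in sGC (SD, n = 5, limma, adjusted p = 0.095). Summed, it ran from 1698 to 3158 in Veh and from 2487 to 3931 in sGC. 

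Of 5 suprachiasmatic and anterior hypothalamic markers 2 rose, LHX1 by 1.04 and RORB by 0.69 log2 units (limma, adjusted p of 0.0247 and 0.0432), where 0.657% of all genes were called. SIX6 at 1.07, SIX3 at 0.13 and VIP at -0.41 did not pass, 3 of the 5 had an unadjusted p under 0.05 and a higher mean, against 12.1% of all genes, the median log2FC was 0.69, and the list sum was 1756 to 3299 in Veh and 3065 to 5412 in sGC. Of 8 thalamic markers FOXP2 fell by 0.89 (limma, adjusted p = 0.0195), the only one called, against the same 0.657%. At an unadjusted p under 0.05, 5 of the 8 were lower and 1 higher, against 1.46% and 12.1% of all genes, the log2FC ran from -2.39 for GBX2 to 0.34 for RORA with a median of -0.80, 3 of the 8 had a higher mean, and the sum was 7728 to 25530 in Veh and 6548 to 9484 in sGC. All 9 genes of the zona incerta and GABA neuron list had a higher mean (median 0.49, sum 9676 to 21851 in Veh and 16699 to 33640 in sGC, 0 called by limma and 6 with an unadjusted p under 0.05, against the same 12.1%). The 5 endothelial markers, too, had a higher mean (median 0.39, sum 3777 to 5888 in Veh and 4593 to 8472 in sGC), with 0 called and 4 at an unadjusted p under 0.05, led by CDH5 at 0.82 (limma, adjusted p = 0.083). These shares depend on the scale. With size factors 17.3% of all genes were called in F1 by limma, and 17% were lower and 16% higher at an unadjusted p under 0.05. On that scale 1 of the 7 PVN genes (TRH) was called and 6 were lower at an unadjusted p under 0.05, against 0 called and 2 higher of the 6 ventromedial genes. The suprachiasmatic and thalamic calls were again LHX1, RORB and FOXP2, 3 and 4 genes of these lists had an unadjusted p under 0.05 (higher and lower), DLX6 of the zona incerta list was called with 2 genes higher at an unadjusted p, and 0 endothelial genes were called with 3 higher. The list medians were -1.0, 0.54, 0.62, -0.86, 0.43 and 0.32, in the order PVN, ventromedial, suprachiasmatic, thalamic, zona incerta and endothelial. With size factors CX3CR1 of the 4 tested microglial markers was also called in F1, and 2 of the 4 were higher at an unadjusted p under 0.05. The 5 oligodendrocyte genes had a higher mean on that scale (median 0.28), with 0 called. No marker of these lists was at 0 in any F1 animal. The part of punch content in the F1 values of SIM1, OTP, POU3F2 and FEZF1 was not tested. 

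In F2 the 7 PVN genes had a higher mean (median 0.32, sum 61090 to 102096 in Veh and 84305 to 175321 in sGC), and the 6 oligodendrocyte genes a lower one (median -0.85, sum 125164 to 225722 in Veh and 65936 to 106445 in sGC), with 0 of either called by limma, as of all genes, and 4 and 6 at an unadjusted p under 0.05 (all genes, 11.7%, and 2.49% for higher alone). The 5 endothelial genes also had a lower mean in F2 (median -0.37, sum 4417 to 7362 in Veh and 4005 to 4999 in sGC), with 0 called by limma and 3 at an unadjusted p under 0.05. The 4 ependymal genes had a higher mean in F2, as the PVN genes did (median 0.68, sum 4597 to 5261 in Veh and 4670 to 6429 in sGC), from 0.04 for FOXJ1 to 1.5 for TMEM212, with 0 called by limma and 1, RSPH1 at 1.00 (limma, adjusted p = 0.398), at an unadjusted p under 0.05. The ventromedial list had a median of 0.0076 there, and NR5A1 was at 0 in at least 1 F2 animal and was not tested. In F3 the medians of the PVN and ventromedial lists were -0.01 and 0.06. The part of these lists in the F2 and F3 values of the factors was not tested. 

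**Figure D5:**
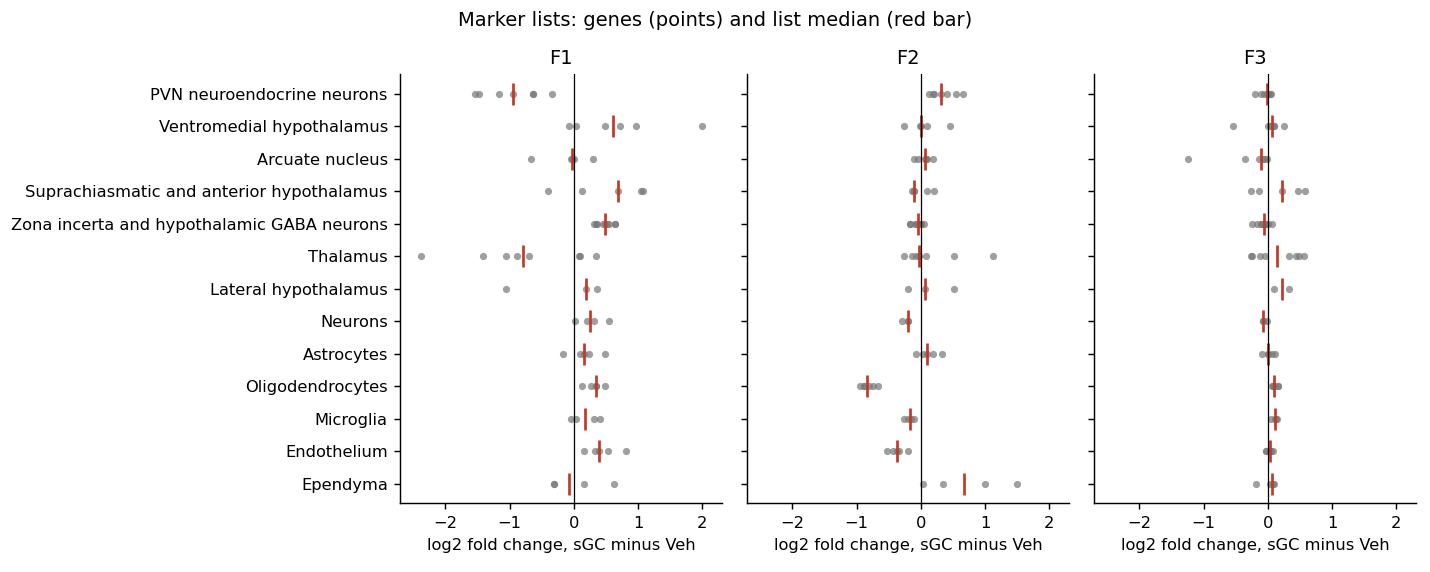
Log2FC (sGC minus Veh, horizontal axis) of each tested marker gene (grey points) and the median of its list (red bar) in F1, F2 and F3, for 13 lists of cell types and neighbouring regions. The PVN list, which holds SIM1 and OTP, has a median of -0.94 in F1, 0.32 in F2 and -0.01 in F3, and the oligodendrocyte list of -0.85 in F2.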

How the data were processed

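Total RNA of PVN micropunches was made into mRNA libraries and sequenced as single-end reads. Per the labels, the authors aligned with TopHat2 and tested with edgeR, and the study names the cavPor3 assembly, counts per gene with GenomicAlignments, ComBat for the F3 batches and RUVSeq residual normalization. The deposited values are those normalized counts after rounding, a score with no fixed unit rather than raw reads, so no count model, interval or floor was used and limma replaced the edgeR test of the study. The deposited tables also hold the authors' dispersion, log2 fold change, average log CPM, likelihood ratio, p-value and false discovery rate, none of which was used. Re-sequenced F3 libraries were not used here.

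Tables were analysed one by one. Genes with a mean of at least 10 were kept, a pseudocount of 1 was added before taking log2, and sGC was compared with Veh in R 4.3.3 by limma 3.58.1 with a mean-variance trend, at a Benjamini-Hochberg threshold of 0.05. Single members were also tested by exact permutation of all 252 (F1, F2) or 924 (F3) splits of the animals. Correlations used values centred within treatment groups and exact permutation within groups. All tests were two-sided. P-values measure the spread between these animals. The alternatives were size factors, scaling to the total, quantile normalization, other pseudocounts and filters, no trend, removed directions, AVP or OXT as covariates, single batches, the heading number as a block and leaving out each animal. The removed directions were counted as singular values near 0 of the centred log2 values. The limma and permutation procedures were tested on simulated data. The named genes are the 5 members, AVP, OXT, CRH, TRH and SST, genes of the fixed lists that passed or were the highest or lowest of their list, and the 3 nearest genes of each member. NR5A1, SIM2, GLP1R, SLC17A6, genes of the lists called with size factors, and the names that only make up a list, were added after their values were seen. The members and lists were chosen with earlier results of these data known. No sequence is printed, since the assembly of the gene table given here, mCavPor4.1, is not the one the authors used.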

Additional observations from a re-analysis of the deposited data

Results flagged for a closer look

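In all, 60 sets of 5 or 6 animals (5 members and 5 peptides in 6 groups) were examined for an animal far from the rest of its group, which chance gives in about 1 of 20 groups, or 3 of 60, and 5 were found. In F1 sGC, SGM20 had ARNT2 at 12.98 on the log2 scale (8063 normalized counts), below the other 4 animals at 9972 to 10714. In F3 Veh, SGM17 had FEZF1 at 8.21 (294, others 505 to 664), and it is the animal with the most AVP, OTP and POU3F2 of F3. The other 3 concern peptides, AVP in F1 Veh SGM19 at 15.57 (48718, others 88264 to 110112), CRH in F2 Veh SGM29 at 7.35 (162, others 253 to 285) and SST in F3 Veh SGM9 at 11.39 (2674, others 4630 to 6153). SGM19 also had the lowest SIM1, OTP and POU3F2 of the F1 Veh group, and SGM9 the lowest OTP, POU3F2, AVP and OXT of F3 Veh.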

How the results depend on the processing

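Pseudocounts of 0.5 and 5, no filter on low values, a mean of at least 50, no trend and the removed directions as covariates changed no member's direction or call between sGC and Veh. The deposited values keep no read depth per library, the groups hold 5 or 6 animals, and p-values do not count the removed directions. Where a value below changed, the cause was not tested.

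The column headings number the animals within each treatment group, and no source ties a number to a litter, sire or day. Over the genes tested, same-numbered Veh and sGC animals had an r of their deviations from the group means of -0.239 to 0.313 in F1, -0.412 to 0.223 in F2 and -0.542 to 0.185 in F3, and 1 of 5, 1 of 5 and 0 of 6 Veh animals correlated best with their own number. With this number as a replicate block, added after seeing the data, 146 genes passed in F1, 6 in F2 and 0 in F3, and no member's direction or call changed.

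The number of genes past the threshold in F1 (78) became 2058 with size factors, 1943 scaled to the sample total, 2083 with quantile normalization and 30 with no trend, and ran from 15 to 474 when 1 animal was left out (Veh SGM7 474, SGM11 24, SGM15 15 and SGM19 29, sGC SGM12 151 and SGM20 133). In F2 (0) it was 42 with quantile normalization and 17 with a mean of at least 50, and from 0 to 114 when 1 animal was left out (Veh SGM22 86 and SGM28 114, sGC SGM30 23). In F3 (6) it was 10 with no trend, 1 with the removed directions, 16 with AVP and 3 with OXT as covariate, 2 in the first batch, 3 with batch as covariate, and from 1 to 15 when 1 animal was left out, moving by over 1.5 times without any animal but sGC SGM22-batch2.

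In F1 the log2FC of SIM1, OTP and POU3F2 turned to 0.11, 0.12 and 0.16 with AVP as covariate and to 0.13, 0.16 and 0.19 with OXT. In F2 that of ARNT2 turned from -0.0042 to 0.070 with size factors, 0.080 scaled to the total, 0.11 with quantile normalization, 0.11 with AVP and 0.13 with OXT as covariate. By the exact permutation test on the deposited scale, F1 OTP (-0.64, p = 0.143), F1 FEZF1 (0.48, p = 0.143) and F2 SIM1 (0.20, p = 0.0556) lost an unadjusted p under 0.05. With size factors F2 SIM1 kept it (exact permutation p = 0.0397). Leaving out 1 animal gave F1 ARNT2 from 0.10 to 0.24 (0.10 without Veh SGM19, 0.11 without SGM15), F1 SIM1 from -0.48 to -0.22, F1 OTP from -0.86 to -0.39, F1 POU3F2 from -0.50 to -0.24, F3 SIM1 from -0.19 to -0.031, F3 FEZF1 from 0.053 to 0.37, F2 ARNT2 from -0.062 to 0.038, F2 FEZF1 from -0.10 to 0.25, F3 OTP from -0.13 to 0.10, F3 POU3F2 from -0.094 to 0.051 and F3 ARNT2 from -0.039 to 0.012. The F1 minus F2 differences of SIM1, OTP and POU3F2 were -0.68, -1.09 and -0.77 with size factors, and from -0.68 to -0.42, from -1.18 to -0.71 and from -0.78 to -0.53 when 1 animal was left out. The F2 minus F3 differences ran from -0.047 to 0.053 for ARNT2 and from -0.35 to 0.044 for FEZF1.

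Relations with the peptides past the threshold in F1 (7) were 3 in the animals above the AVP gap. In F2 (3) they were 6 not centred and 0 without the 2 farthest animals, and 0 to 4 when 1 animal was left out (0 without sGC SGM21). In F3 (10) they were 2 without the 2 farthest, and 3 to 11 when 1 was left out (3 without Veh SGM17). Relations among members were 6 in F1 (3, the added ones being those of ARNT2 with SIM1, OTP and POU3F2) and 1 in F2 (0) without the 2 farthest, 2 in F2 not centred, and 3 to 6 in F1 (5 without sGC SGM4, 6 without SGM20) and 0 to 1 in F2 (1 without Veh SGM23, SGM28 or sGC SGM21) when 1 animal was left out.

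These r changed sign. Not centred, F1 ARNT2 with CRH was -0.0893 and F2 OTP with AVP 0.229. With size factors, F2 OTP with AVP was 0.323, F2 ARNT2 with CRH 0.0863, F1 ARNT2 with FEZF1 -0.257 (-0.264 above the AVP gap) and F2 POU3F2 with ARNT2 -0.0689, and the F2 slopes of OTP on AVP and ARNT2 on CRH were 0.13 and 0.019. Without the 2 farthest animals, F1 FEZF1 was 0.112 with AVP and 0.0656 with OXT, F2 SIM1 -0.511 with AVP and -0.22 with OXT, F2 OTP -0.0757 with OXT, F2 POU3F2 -0.334 with AVP, F2 ARNT2 0.306 and F2 FEZF1 0.605 with CRH, and F3 FEZF1 0.0841 with AVP and 0.129 with OXT. When 1 animal was left out, F1 FEZF1 ran from -0.42 to 0.00801 with CRH, from -0.363 to 0.104 with SIM1, from -0.294 to 0.104 with OTP, from -0.46 to 0.0369 with POU3F2 and from -0.287 to 0.538 with ARNT2. F2 SIM1 ran from -0.309 to 0.273 with AVP, from -0.0535 to 0.42 with OXT and from -0.346 to 0.279 with FEZF1. F2 OTP with AVP ran from -0.431 to 0.22, F2 POU3F2 from -0.0442 to 0.394 with AVP and from -0.0749 to 0.355 with ARNT2, and F3 FEZF1 from -0.507 to 0.0155 with AVP and from -0.575 to 0.0484 with OXT.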
